A study of Mus musculus with 27 samples.

Results

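The collagen genes of *Setdb1* cKO iMEFs were examined in RNA-seq data of 27 libraries. Members were all genes whose symbol in the siRNA and inhibitor libraries reads Col, a number, the letter a and a number, which gave 43 of 22384 named genes. They were divided into 11 fibrillar collagens, 8 basement membrane collagens and 24 other collagens. The other collagens comprised 6 chains of beaded filaments, 9 fibril-associated collagens with interrupted triple helices (FACIT), 3 short-chain network collagens, 4 transmembrane collagens and 2 that belong to none of these. *Col7a1* was not a member, because its locus is named together with a microRNA.

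Collagens are built from 3 chains that wind into a triple helix in the endoplasmic reticulum, where prolines are hydroxylated and the chaperone Serpinh1 is bound. Fibrillar collagens (types I, II, III, V, XI, XXIV and XXVII) are secreted as procollagens, trimmed at their ends and cross-linked by lysyl oxidases into fibrils. Type IV collagen forms the network of basement membranes, to which the types XV and XVIII are attached. Type VI forms beaded filaments, and FACIT collagens such as XII and XVI bind to the surface of fibrils. Fibroblasts are the main source of types I, III, V and VI in connective tissue.

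The cells were immortalized mouse embryonic fibroblasts that carry a conditional allele of *Setdb1*, the gene of a histone H3 lysine 9 methyltransferase, in all groups. They came from 1 recloned single-cell line, in which 4-hydroxytamoxifen (4OHT) triggers the deletion. The total RNA experiment held untreated cells, cells given 4OHT for the first 4 days and harvested at day 5 (4OHT day 5), and cells kept for more than 2 weeks after 4OHT (long-term KO), with 3 libraries each, made from RNA depleted of ribosomal RNA. The siRNA experiment held cells with control siRNA (siCtrl), with siRNA against *Dnmt1* (siDnmt1), the maintenance DNA methyltransferase, and both siRNAs after 4OHT (4OHT + siCtrl, 4OHT + siDnmt1), with 2 libraries each harvested at day 6. The inhibitor experiment held untreated cells, cells with the histone deacetylase inhibitor trichostatin A (TSA) at 150 nM for 24 h, cells with the MEK inhibitor PD0325901 at 1 µM for the last 24 h, cells at day 6 after 4OHT (4OHT day 6), and cells with 4OHT and PD0325901, with 2 libraries each. Nothing in the labels says that replicates were separate cultures, so the p-values measure only the spread between these samples, which may be technical.

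Levels are FPKM, fragments scaled to transcript length and library size, as deposited. The depth that FPKM and their confidence intervals imply was 37.4 to 42.5 M fragments in total RNA, 13.8 to 15.8 M fragments in the siRNA libraries and 10.9 to 12.8 M fragments in the inhibitor libraries. Gene-level FPKM do not report the loss of an exon. *Setdb1* lay between 4.16 and 10.1 FPKM in all libraries except 1 of 4OHT day 6 and both of 4OHT + PD0325901, where it was listed at 0. *Dnmt1* fell from 73.4 and 80.5 FPKM in siCtrl to between 10.6 and 12.2 FPKM in the 4 siDnmt1 libraries. The fibroblast label was met by *Vim*, *S100a4* and other fibroblast markers, of which 7 or all 8 on the list had a value in a library and summed to between 832 and 2593 FPKM. Between 5 and 7 of the 8 reached 1 FPKM. *Fap* was at 0 in siDnmt1 replicate 2, both untreated inhibitor libraries and PD0325901 replicate 1. Of markers of other cell types, the 5 endothelial ones summed to at most 2.25 FPKM. The 5 muscle ones summed to at most 1.01 FPKM in untreated total RNA and to 1.5 to 1.64 FPKM at 4OHT day 5. In the long-term KO their sum was at most 0.564 FPKM. They summed to 0.985 and 0.672 FPKM in siCtrl and to 5.34 and 2.79 FPKM in 4OHT + siCtrl. In 4OHT + siDnmt1 they summed to 5.665 and 8.198 FPKM. In the inhibitor experiment they summed to 0.481 and 0.738 FPKM in untreated cells and to 2.59 and 3.12 FPKM at 4OHT day 6. Their part was not tested. *Krt19* and *Cd68* moved with some groups, as given beside the results. Adipocyte markers, with *Fabp4* or *Cfd* highest, also summed to less in 4OHT day 5 (0.21 to 0.54 FPKM), in 4OHT + siCtrl (0.874 and 0.27 FPKM) and in 4OHT day 6 (0.362 and 0.754 FPKM) than in their controls (2.25 to 4.01, 1.55 and 1.98, and 7.2 and 13.02 FPKM), with *Plin1* at 0 in all of these libraries, and their part in the results was not tested.

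In the mm9 coordinates of the deposited loci, *Col1a1* lies at chr11:94797538-94814356, *Col1a2* at chr6:4455618-4491543, *Col3a1* at chr1:45368383-45406551, *Col6a1* at chr10:76171537-76188789 and *Col12a1* at chr9:79446794-79566529. Several members are neighbours. *Col3a1* and *Col5a2* lie 24624 bases apart, *Col6a2* and *Col6a1* 85387 bases, and *Col4a1* (chr8:11198423-11312826) and *Col4a2* (chr8:11312805-11449287) run in opposite directions from starts that overlap by 22 bases. Without a statement that counting used strand, reads in that overlap cannot be told apart.

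Promoter windows of 5 members are printed here because these genes carried the main changes: *Col1a2*, *Col3a1* and *Col6a1* as abundant genes of 3 collagen types, and *Col11a1* and *Col23a1* as scarce genes that were higher with TSA. Each is the 250 bases before the transcript start, 5′ to 3′ on the gene's strand, from RefSeq on GRCm38.p6, a newer build than the mm9 of the libraries. Capitals mark the CCAAT box CCAAT, the TATA box with the letters TATAAA, the GC box with the letters GGGCGG and the AP-1 sequence TGACTCA, each on either strand.
*Col1a2*, chr6:4505368-4505617, + strand: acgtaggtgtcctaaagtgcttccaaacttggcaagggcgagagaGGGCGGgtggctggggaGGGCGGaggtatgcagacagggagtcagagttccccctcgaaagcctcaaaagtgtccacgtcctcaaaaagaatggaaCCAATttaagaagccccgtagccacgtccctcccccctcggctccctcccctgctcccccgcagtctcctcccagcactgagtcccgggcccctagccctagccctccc
*Col3a1*, chr1:45311288-45311537, + strand: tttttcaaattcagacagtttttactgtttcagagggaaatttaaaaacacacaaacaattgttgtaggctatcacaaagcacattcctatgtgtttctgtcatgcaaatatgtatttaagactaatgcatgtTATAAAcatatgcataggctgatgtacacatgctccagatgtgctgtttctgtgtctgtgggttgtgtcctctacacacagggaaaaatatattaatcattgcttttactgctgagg
*Col6a1*, chr10:76726045-76726294, − strand: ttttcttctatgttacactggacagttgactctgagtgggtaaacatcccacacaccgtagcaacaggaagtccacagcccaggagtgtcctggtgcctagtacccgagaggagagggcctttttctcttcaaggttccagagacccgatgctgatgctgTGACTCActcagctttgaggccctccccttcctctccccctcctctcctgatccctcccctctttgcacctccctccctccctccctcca
*Col11a1*, chr3:114030290-114030539, + strand: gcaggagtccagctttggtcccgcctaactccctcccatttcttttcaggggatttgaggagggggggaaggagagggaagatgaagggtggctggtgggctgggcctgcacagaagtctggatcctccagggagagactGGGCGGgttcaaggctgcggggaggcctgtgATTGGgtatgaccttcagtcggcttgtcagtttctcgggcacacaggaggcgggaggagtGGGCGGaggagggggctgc
*Col23a1*, chr11:51289670-51289919, + strand: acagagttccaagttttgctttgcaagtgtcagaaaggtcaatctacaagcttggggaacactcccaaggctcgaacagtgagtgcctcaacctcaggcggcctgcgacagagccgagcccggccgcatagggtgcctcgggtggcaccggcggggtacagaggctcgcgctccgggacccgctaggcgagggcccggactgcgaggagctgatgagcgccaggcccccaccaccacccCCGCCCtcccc
The *Col1a2* window held CCAAT at 109 bases and GGGCGG at 188 and 205 bases before the start. That of *Col3a1* held TATAAA at 117 bases, and that of *Col6a1* held the AP-1 sequence TGACTCA at 90 bases. The *Col11a1* window held CCAAT on the opposite strand at 79 bases and GGGCGG at 19 and 110 bases, and that of *Col23a1* held GGGCGG on the opposite strand at 11 bases. Of the 43 members, 34 had a window. CCAAT was present in 12 of them, TATAAA in 5, GGGCGG in 20 and TGACTCA in 1, while the shares over all 32841 windows of the same length were 33.9%, 12.4%, 32.7% and 4.46%. These matches of letters are a description and were not tied to any factor.

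Most of the collagen RNA came from few genes. Of the 43 members, 16 had at least 1 FPKM in every library, 9 reached it in some, and 18 never did, the highest value among these being 0.876 FPKM. The members that never did were 2 fibrillar, 3 basement membrane and 13 other collagens. Among them were *Col11a2* and *Col24a1*. The same 6 genes held the top ranks by mean in each of the 3 experiments, namely *Col1a1* and *Col1a2* (the chains of type I), *Col3a1*, *Col5a2*, *Col6a1* and *Col6a2*. These 6 held between 58.2% of the collagen FPKM, in a TSA library, and 89.9%, in a PD0325901 library. The collagens together held 0.168 to 0.401% of the summed gene FPKM in total RNA, 0.198 to 0.902% in the siRNA libraries and 0.235 to 1.25% in the inhibitor libraries. In total RNA, *Snhg1*, *Rmrp* and *Rpph1* alone held 41.8 to 50.4% of that sum, so shares are not comparable between the experiments.

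**Figure D1:**
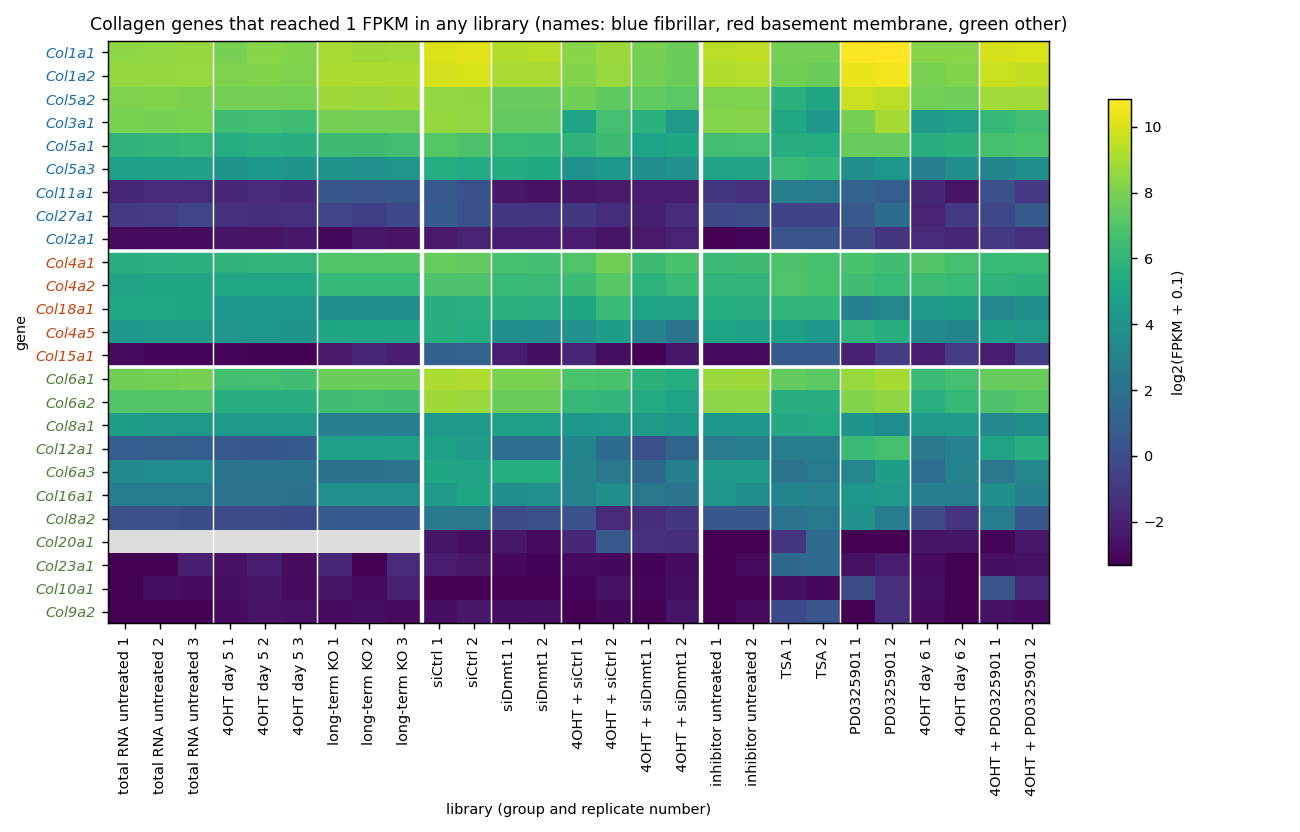
Heat map of log2(FPKM + 0.1) of the 25 collagen genes (rows, by class) that reached 1 FPKM in any of the 27 libraries (columns, by experiment and group), with grey where no value was taken. The rows of *Col1a1* and *Col1a2* are bright throughout, while *Col11a1*, *Col15a1* and *Col23a1* are dark except in a few groups.

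A gene was tested when it had at least 1 FPKM in as many libraries of an experiment as its smallest group holds, and it was called at an adjusted p-value under 0.05 (limma, Benjamini-Hochberg over all genes tested) with a fold change of at least 2. This filter passed 17 members in total RNA, 20 in the siRNA and 22 in the inhibitor experiment. A few passed only through 1 group in which they were high, which were *Col11a1* in total RNA (long-term KO), *Col11a1*, *Col15a1* and *Col27a1* in the siRNA experiment (siCtrl), and *Col15a1*, *Col23a1* and *Col2a1* in the inhibitor experiment (TSA). Their calls are named as such beside each count. In the inhibitor experiment, *Col11a1* passed only through TSA and PD0325901, and *Col27a1* only through PD0325901 and 4OHT + PD0325901. In these bulk samples, fewer expressing cells and less RNA per cell cannot be told apart. Fold changes are log2 differences on the log2(FPKM + 0.1) scale with their standard error (SE), and levels are per transcript length.

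At day 5 after 4OHT, type III and type VI collagen RNA was lower and no collagen was called higher. *Col3a1*, the chain of the type III homotrimer, stood at 259.9, 243 and 251 FPKM in untreated cells and at 90.8, 94.0 and 86.5 FPKM after 4OHT. The groups did not overlap, and the log2 fold change was −1.47 (SE 0.04, adjusted p = 2.04e-07). The chains of type VI moved the same way. *Col6a1* went from 217, 224 and 248 FPKM to 94.6, 96.4 and 91.8 FPKM (log2 fold change −1.28, SE 0.05, adjusted p = 9.37e-07). *Col6a2* went from 133, 132 and 134 FPKM to 48.4, 49.9 and 48.6 FPKM (−1.44, SE 0.02, adjusted p = 1.73e-08). *Col6a3*, the long chain of the same filament, went from between 10.4 and 11.7 FPKM to between 4.30 and 4.51 FPKM (−1.33, SE 0.06, adjusted p = 1.97e-06). All 3 chains were thus lower in every treated library than in any untreated one.

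These 4 were the calls among the 17 members tested, against 1.29% of all genes called lower and 1.94% called higher. The groups did not overlap for 16 of the 17, against 50.7% of all genes. Of all called genes 60.1% were higher, and 50% under quantile normalization. Without the limit on fold change, 14 members were lower and 2 higher, the latter being *Col4a1* (0.27, SE 0.03, adjusted p = 0.000369) and *Col4a2* (0.15, SE 0.03, adjusted p = 0.00645), the 2 widespread chains of type IV. The median log2 fold change was −0.41 over the collagens and 0.00 over all genes tested. *Col1a2* stood at 389.8, 395 and 408 FPKM in untreated cells and at 272, 283 and 273 FPKM at day 5, a smaller difference than that of *Col3a1* but with no overlap. Markers of epithelium summed to 3.27 to 3.56 FPKM in untreated cells and to 6.82 to 8.18 FPKM at day 5 (*Krt19*, with *Krt5* and *Krt14* at 0), and their part was not tested. *Col1a1* was outside the fit, because its locus covered 92.67% of the gene in 2 libraries. With a cover of 50% allowed, its log2 fold change was −0.37 (SE 0.10, adjusted p = 0.0224).

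At day 6, with siCtrl and in the inhibitor experiment, chains of types I, III and VI were lower with 4OHT. With siCtrl, 13 of 20 members were lower with 4OHT and 0 higher, against 3.48% and 2.6% of all genes, although 3 of the 13 (*Col11a1*, *Col15a1*, *Col27a1*) had passed the filter through siCtrl alone. The groups did not overlap for 17 members, against 58.8% of all genes. *Col6a1* fell from 556 and 569 FPKM to 114 and 112 FPKM (−2.32, SE 0.11, adjusted p = 0.000427). *Col6a2* fell from 448 and 416 FPKM to 70.2 and 65.7 FPKM (−2.67, SE 0.15, adjusted p = 0.000663). The type VI chains were again far apart between the groups, with close replicates. *Col1a1*, the chain present in 2 copies in type I collagen, fell from 1106 and 1148 FPKM to 317 and 416 FPKM (−1.63, SE 0.15, adjusted p = 0.0035). *Col1a2* fell from 987 and 1021 FPKM to 291 and 398 FPKM (−1.56, SE 0.16, adjusted p = 0.00416). Both chains of type I thus changed by a like amount. *Col3a1* fell from 391 and 374 FPKM to 31.0 and 99.1 FPKM (−2.78, SE 0.62, adjusted p = 0.0362). In proportion, its treated libraries differed more from each other than those of *Col6a1*, *Col6a2*, *Col1a1* and *Col1a2*. *Col8a2*, a chain of a short network collagen, fell from 5.18 and 4.91 FPKM to 1.11 and 0.240 FPKM (−3.004, SE 0.58, adjusted p = 0.0254). *Col12a1*, *Col16a1*, *Col5a3* and *Col6a3* completed the 13, with log2 fold changes between −2.34 and −1.27.

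The spread between the 2 libraries of 4OHT + siCtrl was wide for several members, and the count rested on the controls. Without siCtrl replicate 1 the number of lower members was 4, and without siCtrl replicate 2 it was 3. The epithelial markers (6 genes, *Krt5* at 0 in both libraries with 4OHT) summed to 8.51 and 9.66 FPKM in siCtrl and to 16.1 and 74.1 FPKM in 4OHT + siCtrl, nearly all of it *Krt19*. Their part in the collagen result was not tested.

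In the inhibitor experiment, 10 of 22 members were lower at day 6 after 4OHT and 1 higher, against 6.2% and 4.88% of all genes, and the groups did not overlap for 20, against 68.7% of all genes. *Col3a1* stood at 302 and 308 FPKM in untreated cells and at 19.4 and 26.1 FPKM after 4OHT, the deepest change of a collagen in this comparison (−3.76, SE 0.39, adjusted p = 0.00119). *Col6a2* went from 336 and 349.6 FPKM to 51.9 and 68.5 FPKM (−2.52, SE 0.17, adjusted p = 0.00018), and *Col6a1* from 424 and 441 FPKM to 82.1 and 97.4 FPKM (−2.27, SE 0.13, adjusted p = 0.000111). *Col1a1* went from 668 and 716 FPKM to 322 and 327 FPKM (−1.09, SE 0.11, adjusted p = 0.00119). The treated libraries lay well below the untreated ones for all of these. *Col6a3*, *Col5a3*, *Col4a5*, *Col16a1*, *Col1a2* and *Col18a1* were the other lower members, with log2 fold changes between −2.04 and −1.05. The 1 higher member, *Col2a1*, the cartilage type II chain, had passed the filter through TSA and stayed at or below 0.225 FPKM in these groups. Without any 1 of the 4 libraries it was not called. The epithelial markers summed to 6.73 and 7.12 FPKM in untreated cells and to 17.7 and 44.2 FPKM at day 6, again through *Krt19*. The chondrocyte markers, with *Matn1* at 0, summed to 1.36 and 1.63 FPKM and to 3.35 and 3.16 FPKM. The part of either list in the result was not tested.

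The 3 comparisons of 4OHT share no library. Of the 17 members tested in all 3, 13 had a negative log2 fold change in each, 0 a positive one in each, and 4 were called lower in each, namely *Col3a1*, *Col6a1*, *Col6a2* and *Col6a3*. For all genes, neither the share with 1 direction in all 3 nor the share called lower in all 3 was computed. Taken singly, 50.2%, 56.8% and 49.7% of all genes had a positive log2 fold change, and 1.29%, 3.48% and 6.2% were called lower. The 13 include *Col11a1*, which had passed the filter through long-term KO alone in total RNA and through siCtrl alone in the siRNA experiment. The 4 members without a common direction were *Col4a1*, *Col4a2*, *Col8a1* and *Col12a1*. In the siRNA experiment *Col4a1* stood at 181 and 172 FPKM in siCtrl and at 124 and 223 FPKM with 4OHT, so that the groups overlapped. Its log2 fold change was −0.09 with a 95% interval from −0.75 to 0.57, and that of *Col4a2* was −0.11 with an interval from −0.77 to 0.55. In the inhibitor experiment *Col4a1* went from 79.8 and 83.8 FPKM to 135 and 102 FPKM, with an interval from 0.16 to 0.89 that lies above 0. *Col18a1*, whose fragment is known as endostatin, was lower at day 6 of the inhibitor experiment (−1.05, SE 0.18, adjusted p = 0.0073) but stood at 31.6 and 73.5 FPKM in 4OHT + siCtrl against 48.4 and 50.03 FPKM in siCtrl. Summed over each class, fibrillar FPKM with 4OHT were 0.690, 0.345 and 0.451 times those of the controls in the total RNA, siRNA and inhibitor experiment. The corresponding ratios were 0.965, 0.917 and 1.07 for basement membrane collagens and 0.429, 0.204 and 0.228 for the other collagens. These ratios of sums are a description, since no test compared the classes. Basement membrane members moved apart beneath them. At day 5 the log2 fold changes were −0.90 for *Col18a1*, −0.20 for *Col4a5*, 0.27 for *Col4a1* and 0.15 for *Col4a2*. In 4OHT + siCtrl that of *Col4a5* was −1.28.

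**Figure D2:**
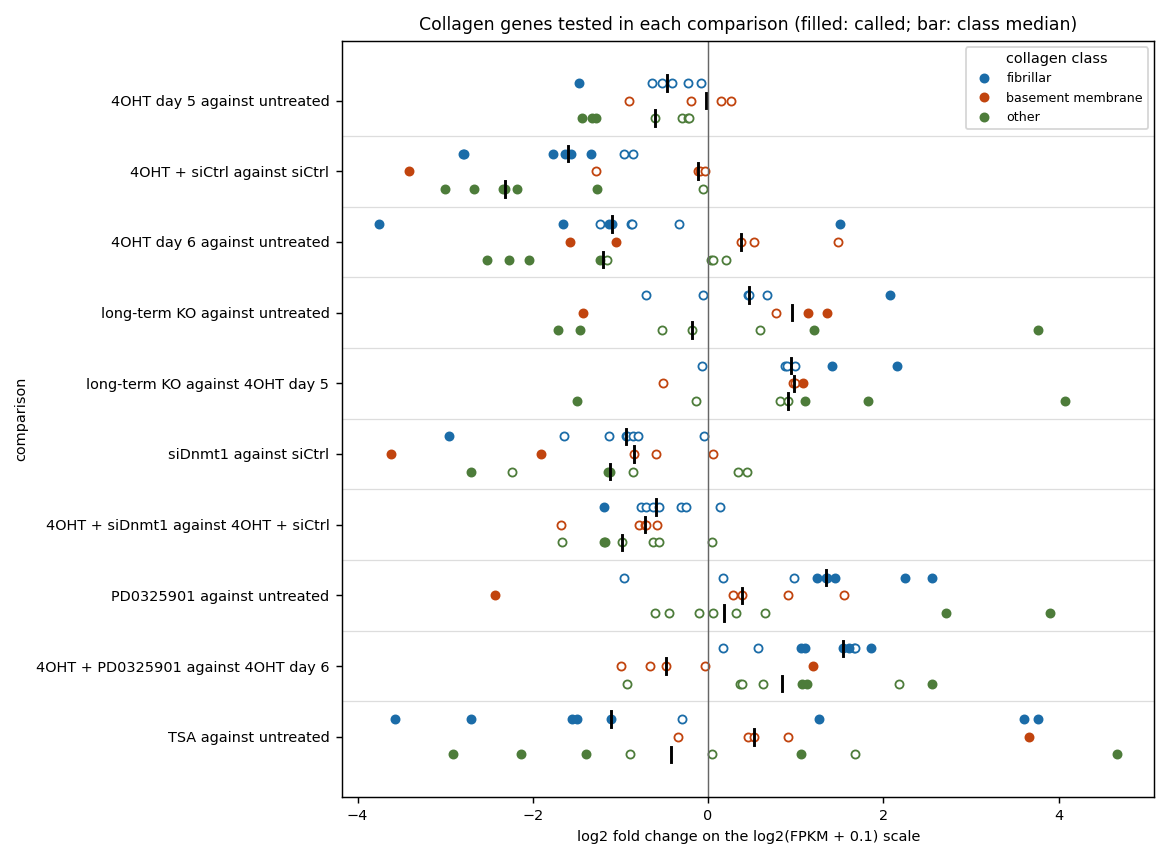
Log2 fold change on the log2(FPKM + 0.1) scale (horizontal axis) of each collagen gene tested, in 10 comparisons (vertical axis), coloured by class, filled where called and with a bar at the class median. In the 3 comparisons of 4OHT with its control, the fibrillar medians were −0.47, −1.60 and −1.09, the basement membrane medians −0.03, −0.11 and 0.38. These medians include members that passed the filter through 1 group alone, such as *Col11a1* and *Col27a1* with siCtrl. In the day 6 basement membrane median this was *Col15a1* (1.49), beside *Col4a1* (0.52), *Col4a2* (0.38), *Col18a1* (−1.05) and *Col4a5* (−1.57).

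In the long-term KO the collagens differed from both other groups of total RNA. Against untreated cells 5 of 17 members were higher and 3 lower, against 7.66% and 6.32% of all genes, and the groups did not overlap for 16, against 73.7% of all genes. *Col12a1*, a FACIT chain that coats type I fibrils, stood at 1.75, 1.86 and 1.80 FPKM in untreated cells and at 25.1, 25.4 and 27.1 FPKM in the long-term KO (3.77, SE 0.05, adjusted p = 2.02e-09). *Col4a1* stood at 49.9, 51.2 and 52.0 FPKM and at 129.7, 129 and 133 FPKM (1.35, SE 0.03, adjusted p = 1.84e-08). *Col4a2* stood at 31.0, 32.5 and 32.8 FPKM and at 70.6, 70.0 and 71.9 FPKM (1.14, SE 0.03, adjusted p = 4.26e-08). All 3 genes were higher in every long-term KO library. *Col16a1* (1.21, SE 0.04, adjusted p = 1.36e-07) was higher too, and *Col11a1*, which had passed the filter through this group alone, rose from at most 0.243 FPKM to between 1.23 and 1.31 FPKM.

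The 3 lower members were 1 basement membrane collagen and 2 other collagens. *Col8a1*, a chain of a short network collagen, stood at 23.6, 22.6 and 21.4 FPKM in untreated cells and at 6.56, 6.88 and 6.97 FPKM in the long-term KO (−1.71, SE 0.04, adjusted p = 3.32e-08). *Col18a1* stood at 35.0, 34.5 and 33.9 FPKM and at 12.9, 12.6 and 12.8 FPKM (−1.42, SE 0.03, adjusted p = 1.19e-08). *Col6a3* stood at 10.4, 11.5 and 11.7 FPKM and at 3.91, 3.85 and 4.21 FPKM (−1.47, SE 0.06, adjusted p = 2.89e-07). None of these groups overlapped. The other type VI chains differed from *Col6a3* in size, *Col6a1* being at 204, 201 and 201 FPKM and *Col6a2* at 91.5, 93.1 and 91.5 FPKM. *Col3a1*, at 248, 233 and 240.2 FPKM, was within a log2 fold change of −0.06 of untreated cells (95% interval −0.16 to 0.04).

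Against 4OHT day 5, 6 members were higher in the long-term KO and 1 lower, against 6.6% and 5.95% of all genes, and the groups did not overlap for 16, against 73.7% of all genes. The higher ones were *Col12a1* (4.07), *Col11a1* (2.15), *Col16a1* (1.82), *Col3a1* (1.41), *Col6a1* (1.10) and *Col4a1* (1.09), with adjusted p-values of at most 2.35e-06. The lower one was *Col8a1* (−1.49, SE 0.04, adjusted p = 7.6e-08). *Col1a2* stood at 549, 544 and 553 FPKM, above both untreated cells and day 5. *Col5a2*, a chain of type V that regulates fibril width, stood at 276, 282 and 264 FPKM in untreated cells, at 236, 238 and 229.9 FPKM at day 5 and at 438, 423 and 454 FPKM in the long-term KO. For both genes the order of the 3 groups was day 5, untreated, long-term KO, with no overlap between neighbours. *Col18a1* had another order, with 18.5, 18.0 and 18.7 FPKM at day 5 between untreated cells and the long-term KO. The 2 comparisons of the long-term KO share its libraries. Epithelial markers summed to between 6.83 and 7.33 FPKM in the long-term KO and between 3.27 and 3.56 FPKM in untreated cells (*Krt19*, with *Krt5* at 0). The adipocyte markers, of which 3 or all 4 had a value, summed to between 0.224 and 0.337 FPKM and between 2.25 and 4.01 FPKM (*Fabp4* and *Cfd*, with *Plin1* at 0). Their part in the result was not tested.

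With siDnmt1 alone, 2 chains each of type VI and of basement membrane collagens and single fibrillar and FACIT chains were lower. The sum over all collagens was 4543 and 4544 FPKM in siCtrl and 2390.0 and 2434 FPKM with siDnmt1, a description that no test covered. *Col6a1* fell from 556 and 569 FPKM to 259.9 and 256 FPKM (−1.12, SE 0.11, adjusted p = 0.00524), and *Col6a2* from 448 and 416 FPKM to 197 and 195 FPKM (−1.14, SE 0.15, adjusted p = 0.0115). *Col4a5*, an X-linked chain of type IV, fell from 46.5 and 43.8 FPKM to 12.7 and 11.2 FPKM (−1.91, SE 0.34, adjusted p = 0.027). *Col12a1* fell from 25.03 and 21.9 FPKM to 3.51 and 3.50 FPKM (−2.71, SE 0.50, adjusted p = 0.0304). In each of these genes the 2 libraries with siDnmt1 were close to each other and below both controls. With *Col11a1* and *Col15a1*, which passed the filter through siCtrl alone, 6 of 20 members were lower and 0 higher, against 2.44% and 2.36% of all genes. The groups did not overlap for 19 members, against 71.9% of all genes. *Col6a3* went the other way than its partners, from 33.1 and 31.3 FPKM to 43.2 and 44.4 FPKM, a difference that did not pass the test (0.44, 95% interval −0.59 to 1.48).

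Type I chains stood at 1106 and 1148 FPKM (*Col1a1*) in siCtrl and at 598 and 644 FPKM with siDnmt1, below the limit on fold change. Without any 1 of the 4 libraries compared (siCtrl replicate 1 or 2, siDnmt1 replicate 1 or 2) the count of lower members was 0, while 0.273 to 0.357% of all genes were then called lower. The epithelial markers summed to 34.1 and 34.3 FPKM with siDnmt1 and to at most 9.66 FPKM in siCtrl (*Krt19*, with *Krt5* at 0 in siDnmt1). The chondrocyte markers summed to 6.48 and 7.10 FPKM with siDnmt1 and to 1.87 and 2.00 FPKM in siCtrl (*Sox9*, with *Matn1* at 0). Their part in the result was not tested.

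When siDnmt1 was added to 4OHT, 2 of 20 members were lower and 0 higher than in 4OHT + siCtrl, against 0.411% and 1.02% of all genes. The groups did not overlap for 14 members, against 43.7% of all genes. *Col6a1* stood at 114 and 112 FPKM in 4OHT + siCtrl and at 55.5 and 44.3 FPKM in 4OHT + siDnmt1 (−1.19, SE 0.11, adjusted p = 0.00762). *Col5a1*, the other chain of type V, stood at 59.3 and 83.4 FPKM and at 29.8 and 31.6 FPKM (−1.19, SE 0.17, adjusted p = 0.03). Without 4OHT + siCtrl replicate 1 the count was 7, and without 4OHT + siDnmt1 replicate 2 it was 1. Of all called genes 71.2% were higher, and 57.7% under quantile normalization. The collagen sum in 4OHT + siDnmt1, at 954 and 1045 FPKM, was the lowest of the 4 siRNA groups. Epithelial markers summed to 78.4 and 78.7 FPKM there and to 16.1 and 74.1 FPKM in 4OHT + siCtrl, and their part was not tested. A test of the interaction of 4OHT and siDnmt1 called 0 of 20 members with limma, against 0.122% of all genes called higher and 0.0748% called lower. At an unadjusted p-value under 0.05 it held 3 members and 1071 of 10694 genes. Without 4OHT + siCtrl replicate 1 it called 2 members higher and 1 lower.

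**Figure D3:**
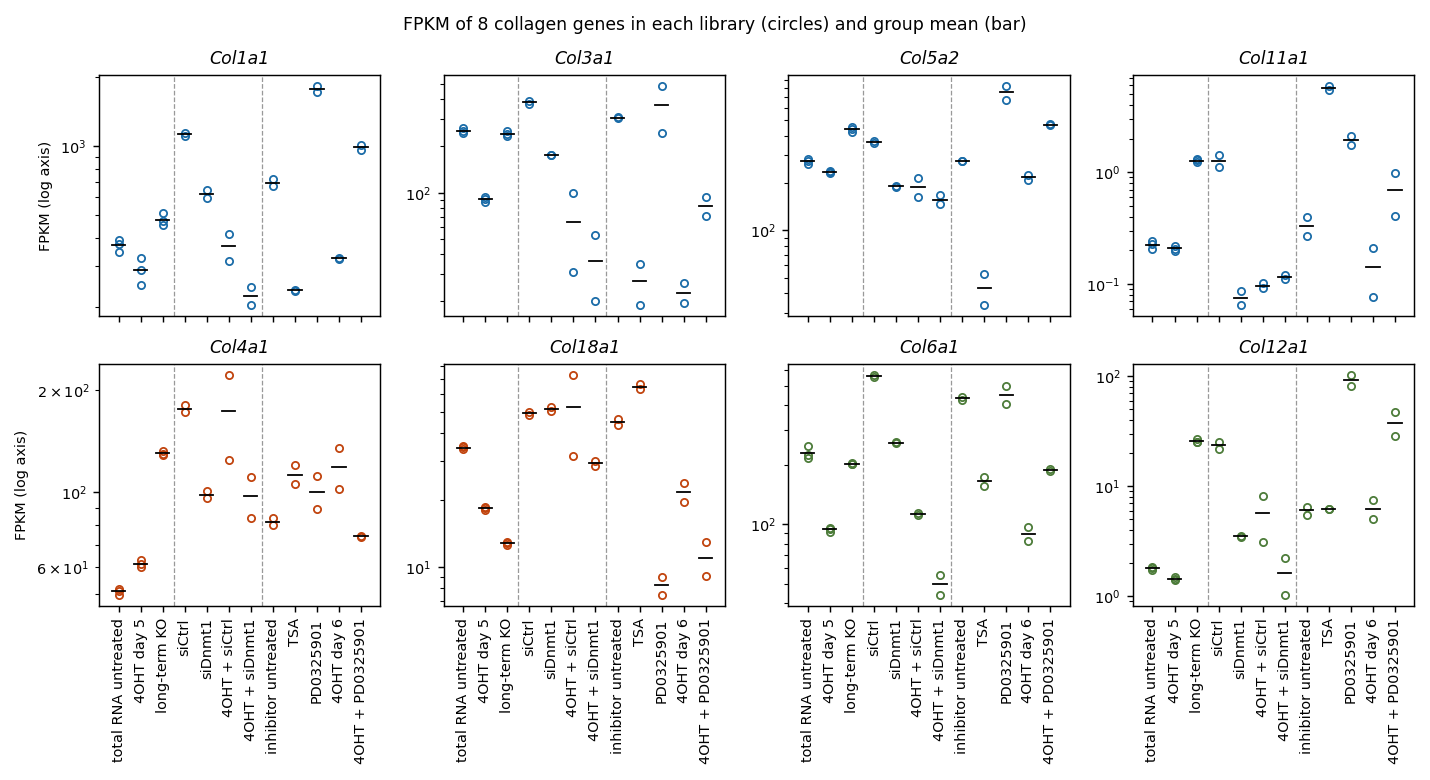
FPKM on log axes of 8 collagen genes in each library (circles) with the group mean (bar), the dashed lines separating the total RNA, siRNA and inhibitor experiments. *Col1a1* spans 202 to 1841 FPKM, and *Col11a1*, on its own axis, 0.0642 to 5.98 FPKM.

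With PD0325901 alone, 5 of the 9 fibrillar collagens tested were called higher and 0 lower, against 3.07% and 4.15% of all genes. *Col1a1* stood at 668 and 716 FPKM in untreated cells and at 1720.0 and 1841 FPKM with the inhibitor (1.36, SE 0.11, adjusted p = 0.000503). *Col1a2* stood at 588 and 605 FPKM and at 1358 and 1476 FPKM (1.25, SE 0.12, adjusted p = 0.000777). *Col5a2* stood at 274 FPKM in both untreated libraries and at 834 and 676 FPKM with the inhibitor (1.45, SE 0.21, adjusted p = 0.00493). These 3 abundant fibrillar chains were above the controls in both treated libraries. *Col12a1* rose most, from 5.53 and 6.55 FPKM to 80.9 and 103 FPKM (3.90, SE 0.28, adjusted p = 0.000278). *Col8a2* rose from 1.41 and 1.36 FPKM to 14.7 and 6.29 FPKM (2.72, SE 0.71, adjusted p = 0.0435), and *Col11a1* from 0.396 and 0.270 FPKM to 2.10 and 1.77 FPKM (2.24, SE 0.42, adjusted p = 0.0143). *Col11a1* had passed the filter only through TSA and PD0325901, the groups in which it was high. With *Col2a1*, which passed the filter through TSA, 7 of 22 members were higher. The 1 lower member was *Col18a1*, which fell from 43.5 and 46.2 FPKM to 7.50 and 9.01 FPKM (−2.43, SE 0.18, adjusted p = 0.000371).

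Over all genes 3.07% were called higher and 4.15% lower, and the groups did not overlap for 64.3%, against 17 of 22 members. Of all called genes 42.5% were higher, or 53.0% under quantile normalization. *Col3a1* stood at 242 and 490.1 FPKM with PD0325901 around the untreated 302 and 308 FPKM, so its groups overlapped. *Col6a1* (405 and 496 FPKM against 424 and 441 FPKM) overlapped as well. *Col5a3*, a minor chain of type V, stood at 28.4 and 30.4 FPKM in untreated cells and at 12.9 and 17.6 FPKM with PD0325901, a difference that did not pass the test (−0.96, SE 0.31, adjusted p = 0.0838). The header of PD0325901 replicate 2 names another group than its label does, and the label was followed. Without this library the counts were 7 higher and 1 lower. Without replicate 1 of the untreated cells 4 members were higher. The epithelial markers summed to 64.6 and 26.9 FPKM with PD0325901 (*Krt5* and *Cldn4* at 0), and the fibroblast markers to 1215 and 1226 FPKM against 2176 and 2335 FPKM in untreated cells. Their part in the result was not tested.

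In cells treated with 4OHT, 9 of 22 members were higher and 0 lower with PD0325901 than at 4OHT day 6, against 2.37% and 1.38% of all genes. The groups did not overlap for 19 members, against 47.3% of all genes. *Col1a1* stood at 322 and 327 FPKM at day 6 and at 960.3 and 1016 FPKM with the inhibitor (1.61, SE 0.11, adjusted p = 0.000518). *Col5a1* stood at 49.5 and 55.1 FPKM and at 104 and 114 FPKM (1.06, SE 0.09, adjusted p = 0.00123). *Col12a1* stood at 5.00 and 7.54 FPKM and at 28.6 and 47.0 FPKM (2.56, SE 0.28, adjusted p = 0.00285). The treated libraries lay above those of day 6 for each of them. *Col3a1* rose from 19.4 and 26.1 FPKM to 71.0 and 93.8 FPKM (1.86, SE 0.39, adjusted p = 0.033), and *Col6a1* from 82.1 and 97.4 FPKM to 186 and 190.2 FPKM (1.07, SE 0.13, adjusted p = 0.00513). *Col1a2*, *Col5a2*, *Col4a5* and *Col6a2* were the remaining higher members. Set beside untreated cells, *Col1a1* with both treatments was above their 668 and 716 FPKM, while *Col3a1* and *Col6a1* were below their 302 and 308 FPKM and 424 and 441 FPKM. These last differences were not tested. *Col4a1* was at 73.9 and 74.2 FPKM with both treatments, below both libraries of day 6 but within the limit on fold change (−0.66, SE 0.16, adjusted p = 0.0478).

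Without 4OHT day 6 replicate 1 the counts were 4 higher and 1 lower, and without 4OHT + PD0325901 replicate 2 they were 8 and 2. The epithelial markers summed to 83.8 and 60.7 FPKM with both treatments, through *Krt19*, and the fibroblast markers to 832 FPKM over the 7 with a value in replicate 1 and to 1213 FPKM over all 8 in replicate 2. Their part in the result was not tested. The interaction of 4OHT and PD0325901 called 0 of 22 members with limma, against 0.498% of all genes called higher and 0.201% called lower, and 9 members and 1807 of 11437 genes had an unadjusted p-value under 0.05. Of all genes called for it 71.2% were higher, and 53.9% under median-ratio scaling. The members with the lowest adjusted p-values were *Col18a1* (1.44, SE 0.26, adjusted p = 0.0654), *Col6a1* (1.02, adjusted p = 0.0681) and *Col6a2* (1.23, adjusted p = 0.0794). Without PD0325901 replicate 2 it called 1 member higher and 1 lower, and without 4OHT + PD0325901 replicate 1 it called 1 higher.

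With TSA abundant fibrillar and type VI collagens fell. The 6 higher members of 22, against 19.3% of all genes called higher, included 3 that had passed the filter through TSA alone. The collagen sum was 2992 and 3107 FPKM in untreated cells and 1188 and 1291 FPKM with TSA. *Col3a1* fell from 302 and 308 FPKM to 35.0 and 18.8 FPKM (−3.57, SE 0.39, adjusted p = 0.000199). *Col5a2* fell from 274 FPKM in both libraries to 52.7 and 33.3 FPKM (−2.71, SE 0.21, adjusted p = 4.21e-05). *Col6a2* fell from 336 and 349.6 FPKM to 46.2 and 44.8 FPKM (−2.91, SE 0.17, adjusted p = 1.56e-05). These were the deepest decreases, each with both treated libraries below both controls. *Col1a1* fell from 668 and 716 FPKM to 237 and 233 FPKM (−1.56, SE 0.11, adjusted p = 3.52e-05), and *Col6a1* from 424 and 441 FPKM to 173 and 156 FPKM (−1.39, SE 0.13, adjusted p = 0.000112). *Col1a2* (−1.50), *Col5a1* (−1.11) and *Col6a3* (−2.14) completed the 8 lower members of 22.

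Of the 6 higher members with TSA, 2 were expressed at a moderate level in untreated cells. *Col5a3*, the third chain of type V, stood at 28.4 and 30.4 FPKM in untreated cells and at 74.0 and 67.6 FPKM with TSA (1.26, SE 0.31, adjusted p = 0.00964). *Col8a1* stood at 18.5 and 18.6 FPKM and at 37.5 and 39.9 FPKM (1.06, SE 0.17, adjusted p = 0.00137). *Col11a1*, a chain of cartilage fibrils, rose from 0.396 and 0.270 FPKM to 5.98 and 5.45 FPKM (3.76, SE 0.42, adjusted p = 0.000235), its highest level in any group. It had passed the filter only through TSA and PD0325901. The other 3 of the 6 higher members passed the filter through TSA alone. They were *Col23a1*, a transmembrane collagen, which went from 0 and 0.0285 FPKM to 2.60 and 3.001 FPKM, *Col15a1*, which went from 0.0276 and 0.0304 FPKM to 1.54 and 1.52 FPKM, and *Col2a1*, which went from 0 and 0.0165 FPKM to 1.26 and 1.17 FPKM. Without either TSA library these 3 did not pass the filter and the count was 3.

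TSA changed many genes, with 19.3% of all genes called higher and 12.8% lower, and with groups that did not overlap for 85.3% of all genes and 21 of 22 members. Of all called genes 60.2% were higher, and 48.7% under quantile normalization. Of the 5 basement membrane collagens tested, 0 were called lower with TSA and 1 higher, *Col15a1*, which had passed the filter through TSA. *Col4a2* stood at 60.9 and 63.2 FPKM in untreated cells and at 123 and 112 FPKM with TSA (0.92, SE 0.13, adjusted p = 0.000764), just inside the limit on fold change. *Col18a1* stood at 43.5 and 46.2 FPKM and at 63.2 and 66.4 FPKM (0.53, SE 0.18, adjusted p = 0.0397). *Col4a5* stood at 29.3 and 27.9 FPKM and at 26.9 and 18.96 FPKM, groups that did not overlap, in a difference that did not pass the test (−0.34, adjusted p = 0.227). The basement membrane class made up 25.6 and 25.9% of the collagen FPKM with TSA and 7.12 and 7.14% in untreated cells. With TSA, epithelial markers summed to 134 and 153 FPKM, 4 of 6 genes reaching 1 FPKM with none at 0. The haematopoietic markers summed to 67.3 and 61.0 FPKM, of which *Cd68* was 67.0 and 60.5 FPKM while *Cd3e* was at 0, and the chondrocyte markers summed to 5.69 and 8.78 FPKM with *Matn1* at 0. In untreated cells these 3 lists summed to at most 7.12, 5.03 and 1.63 FPKM, and their part in the result was not tested.

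Over the members tested, the median log2 fold change against siCtrl was −1.60 in 4OHT + siCtrl and −0.93 with siDnmt1. Over all genes tested these were 0.08 and −0.09. In 4OHT + siDnmt1 the collagen median was −0.71 against 4OHT + siCtrl, with −0.02 over all genes. Against untreated cells it was 0.78 with PD0325901 and −0.13 with TSA, with −0.07 and 0.10 over all genes, and −1.07 at 4OHT day 6. In 4OHT + PD0325901 it was 1.06 against 4OHT day 6, with 0.04 over all genes. In the long-term KO it was 0.47 against untreated cells and 0.97 against day 5, with 0.07 and 0.04 over all genes. These medians include the members that passed the filter through 1 group.

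The classes took different shares of the collagen FPKM across groups. In untreated cells of the inhibitor experiment fibrillar collagens held 65.3 and 65.4% and the other class 27.4 and 27.5%. With PD0325901 the fibrillar share was 79.1 and 79.9%, and the type I chains alone held 55.9 and 56.4%, against 42.0 and 42.5% in untreated cells. The basement membrane share was 3.70 and 4.96% with PD0325901, 15.7 and 19.4% at 4OHT day 6 and 18.0 and 24.9% in 4OHT + siCtrl. In siCtrl it was 8.49 and 8.75%. At 4OHT day 5 it was 10.1 to 10.8%, against 6.99 to 7.18% in untreated total RNA. These shares are given as values, with no test.

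Chains that join in 1 molecule differed in how closely they moved together. The ratio of *Col1a1* to *Col1a2* FPKM stayed between 0.836 and 1.34 over all 27 libraries, and that of *Col4a1* to *Col4a2* between 0.944 and 1.85, the latter being lowest with TSA (0.944 and 0.977). The ratio of *Col6a1* to *Col6a2* was at most 2.24 outside TSA and 3.49 and 3.75 with TSA. That of *Col5a1* to *Col5a2* was 0.341 and 0.355 in untreated cells of the inhibitor experiment and 0.860 and 1.29 with TSA. The type V and type VI pairs thus stood apart in the TSA libraries. *Col6a1* to *Col6a3* ranged from 5.77 with siDnmt1 to 52.3 in the long-term KO. *Col3a1* to *Col1a1* ranged from 0.0603 at 4OHT day 6 to 0.753, and within total RNA it was 0.642 to 0.753 in untreated cells, 0.288 to 0.364 at day 5 and 0.487 to 0.513 in the long-term KO.

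**Figure D4:**
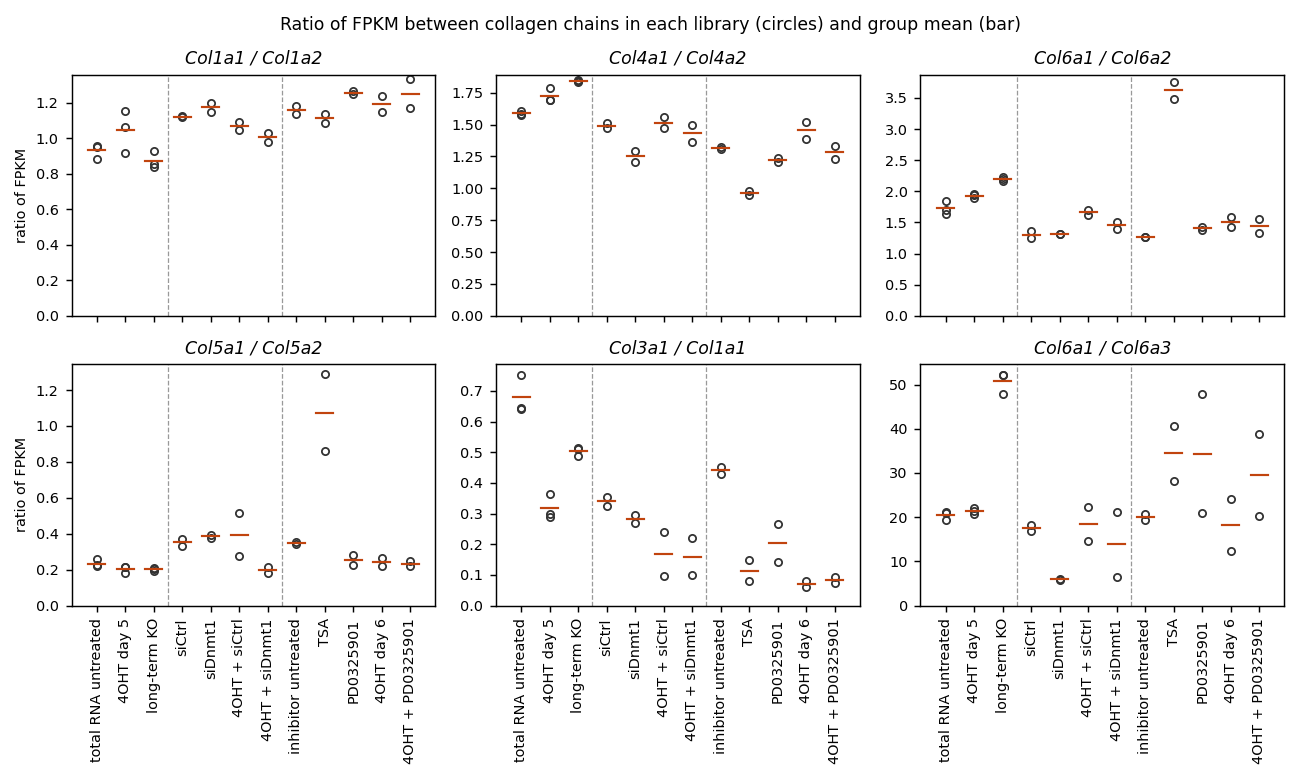
Ratio of FPKM between pairs of collagen genes in each library (circles) and group mean (bar), on linear axes from 0, by group. The ratio of *Col6a1* to *Col6a2* is 3.49 and 3.75 in the TSA libraries and at most 2.24 elsewhere, while *Col1a1* to *Col1a2* stays within 0.836 and 1.34.

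Genes that make, trim or bind collagen were read from lists chosen with earlier results of these data known. Of all genes, 1.29% were called lower and 1.94% higher at 4OHT day 5. The shares were 3.48% and 2.6% in 4OHT + siCtrl, and 6.2% and 4.88% at 4OHT day 6. With siDnmt1 they were 2.44% and 2.36%, with PD0325901 4.15% and 3.07%, and with TSA 12.8% and 19.3%. Of 18 or 19 tested genes of collagen synthesis (prolyl and lysyl hydroxylases, chaperones), 1 was lower at 4OHT day 5, 6 in 4OHT + siCtrl and 2 at 4OHT day 6, with 0 higher in each. *Fkbp14*, a prolyl isomerase of the endoplasmic reticulum, fell in both day 6 comparisons (−2.06, adjusted p = 0.0043 and −2.04, adjusted p = 0.00219). With TSA 5 of 19 were lower and 0 higher, among them the collagen chaperone *Serpinh1*, with a mean of 705 FPKM in untreated cells and 107 FPKM with TSA (−2.72, SE 0.23, adjusted p = 6.93e-05). With siDnmt1 3 of 19 were lower and 0 higher, and with PD0325901 2 of 19 were higher and 0 lower.

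Of the genes of processing and cross-linking, 2 of 10 were lower and 0 higher at 4OHT day 5 and again in 4OHT + siCtrl, and at day 6 3 of 11 were lower and 1 higher (*Pcolce2*, an enhancer of procollagen trimming). With PD0325901 3 of 11 were higher and 0 lower, and with TSA 3 were higher and 5 lower. *Lox*, the lysyl oxidase that cross-links fibrils, was lower in all 3 (−1.05, −2.06 and −1.03, with adjusted p-values of 5.66e-07, 0.037 and 0.00807). With PD0325901 it rose from a mean of 199 to 784 FPKM (1.96, SE 0.19, adjusted p = 0.000894), and it rose by 2.13 when the inhibitor was added to 4OHT. With TSA it fell to 32.9 FPKM (−2.61, SE 0.19, adjusted p = 3.29e-05). The direction of *Lox* was that of *Col1a1* in these comparisons.

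Among fibril-associated matrix genes, 4 of 8 were lower at 4OHT day 5, 7 of 11 in 4OHT + siCtrl and 2 of 10 at day 6, with 0 higher. *Dcn*, decorin, which binds type I fibrils, fell by 1.58, 5.05 and 2.85 on the log2 scale in these comparisons. With PD0325901 5 of 10 were higher and 0 lower, including *Postn*, periostin, at a mean of 493 FPKM against 13.4 FPKM (5.12, SE 0.45, adjusted p = 0.000699). Of basement membrane partners, 1 of 10 was higher and 1 lower at day 5, 2 of 12 were lower and 0 higher in 4OHT + siCtrl, and 5 of 13 were higher and 2 lower with TSA. *Lama4*, a laminin chain, was lower in all 3 comparisons of 4OHT (−1.30, −5.32 and −4.45). Of collagen receptors, 1 of 5 was higher and 0 lower with PD0325901, and 1 of 3 was lower and 0 higher with siDnmt1. Both calls were of *Itga11*, the integrin chain that binds type I collagen, which rose with PD0325901 from 1.27 to 19.02 FPKM (3.77, SE 0.34, adjusted p = 0.000777) and fell with siDnmt1 (−3.10, adjusted p = 0.0353). *Itga11* was also the only receptor called in 4OHT + siCtrl (lower, 1 of 3). In the long-term KO it was the only one called against either other group (higher, 1 of 5). Of all genes 7.66% and 6.6% were called higher there. With PD0325901 added to 4OHT, *Itga11* and *Ddr1* were higher and 0 of 5 lower, against 2.37% and 1.38% of all genes. With TSA, *Itga1* and *Itga11* were higher and *Ddr2* lower. At 4OHT day 5 and day 6, 0 of 5 receptors were called. These counts are a description, read against the same background shares of called genes as the collagens.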

How the data were processed

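RNA-seq libraries of *Setdb1* cKO iMEFs from 3 experiments were analysed. TopHat2 2.0.12 had been used by the authors for alignment to mm9, with 1 position kept for a read with several hits, and Cufflinks with RefSeq genes for the FPKM per gene locus that were deposited. The authors' own comparisons (Cuffdiff fold changes and p-values) were also deposited and were not used here. The labels spell 1 inhibitor both PD0325901 and PD0325091, and the treatment protocol's spelling was used.

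Loci of the total RNA libraries, which carry no gene names, were matched by position to those of the named libraries, with 95% of a gene covered. The same symbol was found for 99.56 to 99.61% of loci that an accession could check. *Col20a1* had no such locus. Separate limma fits (version 3.58.1, R 4.3.3) were made for the experiments, each over all its groups, with trended variances and two-sided tests of values on the log2(FPKM + 0.1) scale, and p-values were adjusted by the Benjamini-Hochberg method over 8437 (total RNA), 10694 (siRNA) and 11437 (inhibitor) genes. In all, 10 comparisons and 2 interactions were fitted, and the code was tested on simulated data. Ratios, sums and motifs used Python 3.11.15 with numpy 2.4.6 and pandas 2.3.3.

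The members, the collagen classes and the lists of related genes were chosen with earlier results of these data known. Named are all members called in a comparison, the 6 with the highest mean FPKM in each experiment, and the chains of types I, III to VI, XV and XVIII that are widespread. Members named beyond these, and the examples from the lists of related genes, were chosen after their values were seen. Alternatives were another pseudocount, filter, scaling, set of groups, no fold limit, a replicate block and leaving out each library.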

Additional observations from a re-analysis of the deposited data

How the results depend on the processing

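Of 82 called values of single members, 0 changed direction under any alternative. Over the log2 fold changes of single members, leaving out a library gave 711 on the same side of the threshold, 79 weaker, 15 stronger and 23 reversed. The other alternatives gave 1564, 55, 9 and 5. The causes were not tested, except where a filter removes genes. In what follows, counts in 4OHT + siDnmt1 are against 4OHT + siCtrl, and those in 4OHT + PD0325901 are against 4OHT day 6. Without a filter on low values, the counts were 2 lower in long-term KO against 4OHT day 5, 7 lower in 4OHT + siCtrl, 1 higher and 1 lower in 4OHT + siDnmt1, 1 higher in the siDnmt1 interaction, 0 higher at 4OHT day 6 and 15 higher with TSA. A filter of 5 FPKM left 0 higher at day 6 and 3 with TSA, as did a filter on the mean, which was chosen after seeing the data. Without the fold limit, 2 were higher and 14 lower at day 5, 10 and 6 in long-term KO against untreated cells and 13 and 2 against day 5, 10 lower with siDnmt1, 2 higher at day 6 and 3 lower in 4OHT + PD0325901. With only the groups compared in the fit, 6 were lower in 4OHT + siCtrl, 0 lower in 4OHT + siDnmt1, 0 higher at day 6 and 2 higher in 4OHT + PD0325901. A pseudocount of 1 gave 0 higher at day 6, as did quantile normalization, and median-ratio scaling and quantile normalization each gave 1 lower in 4OHT + PD0325901. Quantile normalization gave 1 higher in the PD0325901 interaction. The collagen share in total RNA had a median of 0.261% of all named genes and 0.288% of tested genes alone.

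Replicate numbers were not taken to pair the libraries, since not every correlation passed 0.1: deviations of same-numbered libraries correlated at −0.02 to 0.25 (inhibitor, with 0.206 to 0.253 among PD0325901, 4OHT day 6 and 4OHT + PD0325901), −0.07 to 0.03 (siRNA) and −0.04 to 0.11 (total RNA). With a replicate block, 1 member was lower in 4OHT + siDnmt1 and 2 higher in the PD0325901 interaction (*Col18a1*, adjusted p = 0.0315, and *Col6a2*, adjusted p = 0.0474).

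Leaving out 1 library gave 0 lower members with siDnmt1, 3 to 13 lower in 4OHT + siCtrl and 1 to 7 lower in 4OHT + siDnmt1. It gave 0 higher and 7 to 9 lower at day 6, 4 to 7 higher with PD0325901, 3 to 6 higher and 7 to 8 lower with TSA, and 4 to 8 higher and 0 to 2 lower in 4OHT + PD0325901. For the interactions it gave 0 to 2 higher and 0 to 1 lower with siDnmt1 and 0 to 1 in each direction with PD0325901, and for the long-term KO 4 to 5 higher against untreated cells and 5 to 7 against day 5. Reversed values were all of members not called. Under other scaling they were *Col3a1* in long-term KO against untreated cells (0.0424, quantile), *Col4a1* (−0.0134 median-ratio, −0.00272 quantile) and *Col6a2* (−0.0383, quantile) in the siDnmt1 interaction, and *Col5a1* in the PD0325901 interaction (−0.0509, median-ratio). Leaving out 1 library reversed the following, given as the range of the log2 fold change. In 4OHT + siCtrl these were *Col18a1* (−0.64 to 0.58), *Col4a1* (−0.51 to 0.33) and *Col4a2* (−0.49 to 0.27), each positive without 4OHT + siCtrl replicate 1. In 4OHT + siDnmt1 against 4OHT + siCtrl they were *Col3a1* (−1.60 to 0.0718) and *Col6a3* (−1.23 to 0.11). In the siDnmt1 interaction they were *Col1a1* (−0.0470 to 0.34), *Col3a1* (−0.47 to 1.199), *Col4a1* (−0.36 to 0.48), *Col4a2* (−0.50 to 0.26), *Col6a1* (−0.22 to 0.0998) and *Col6a2* (−0.0732 to 0.38). With PD0325901 they were *Col3a1* (−0.34 to 0.68), *Col6a1* (−0.0935 to 0.20), *Col6a2* (−0.27 to 0.0648) and *Col6a3* (−1.34 to 0.13). In 4OHT + PD0325901 they were *Col15a1* (−0.78 to 0.71) and *Col6a3* (−0.23 to 0.96), and in the PD0325901 interaction *Col5a1* (−0.00505 to 0.15). Genes near 1 FPKM rest on few fragments.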

Other observations

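Several scarce collagens that were outside the tests reached their highest level in single groups. *Col13a1*, a transmembrane collagen, was listed at 0 in all inhibitor libraries except those with TSA, where it stood at 0.455 and 0.618 FPKM. *Col9a2*, a FACIT chain of cartilage, stood at 0.798 and 1.23 FPKM with TSA and at 0.291 FPKM or less in the other inhibitor libraries. *Col10a1*, known from hypertrophic cartilage, stood at 0.843 and 0.278 FPKM with PD0325901, at 1.24 and 0.188 FPKM in 4OHT + PD0325901, and at 0.0495 FPKM or less in the other inhibitor libraries. *Col20a1* differed between replicates, with 0.345 and 3.03 FPKM in TSA and 0.215 and 1.48 FPKM in 4OHT + siCtrl. These values were not tested.

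*Col7a1*, the chain of anchoring fibrils, is not among the members because its locus is named jointly with a microRNA. It stood at 1.52 and 1.26 FPKM in siCtrl, at 6.39 and 5.92 FPKM with siDnmt1, at 1.39 and 5.45 FPKM in 4OHT + siCtrl and at 5.04 and 4.67 FPKM in 4OHT + siDnmt1. With TSA it stood at 5.61 and 5.56 FPKM, against 1.19 and 1.56 FPKM in untreated cells. *Col6a3* was also higher with siDnmt1 in both libraries, while *Col6a1* and *Col6a2* were lower.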
